A study of Mus musculus with 8 samples.

Results

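The late change described here is the difference in microRNA (miRNA) level between 24 h and 8 h after neocarzinostatin in ATM+/+ mouse embryonic fibroblasts, which are primary connective-tissue cells grown from embryos. Neocarzinostatin (NCS) is a radiomimetic drug that cuts both strands of DNA, and ATM is the kinase that signals such breaks. The study set ATM+/+ cells against ATM-/- cells of littermates, both grown in 10% fetal calf serum, both exposed to NCS and harvested at 0, 4, 8 and 24 h; the dose of NCS and the age of the embryos are not given in the labels. Each genotype was read on 1 array at each time, and no difference below has a replicate or a test. Each array read the total RNA of a dish, in which fewer cells of a type and less RNA per cell cannot be told apart.

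The members are the 288 probes, carrying 285 miRNA names, that the authors list in both ATM+/+ sheets, one of 8 h against 0 h and one of 24 h against 0 h. They are 288 of 505 probes found in any deposited file, and no level chose them beyond the authors' own listing. The 8 h sheet alone lists another 10 probes and the 24 h sheet another 25. For each member, log2 of the 24 h over the 0 h intensity minus log2 of the 8 h over the 0 h intensity gives the late difference, in which the shared 0 h array cancels. Positive values mean a higher level at 24 h. The same difference was also taken from the deposited ratio table, which holds 431 probes and 233 of the members. The slide lists put the 8 h array at position 1 and the 24 h array at position 2 of a single chip, so position and time cannot be told apart.

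Mature miRNAs are short RNAs cut from a hairpin precursor by Drosha and Dicer. The strand that is kept in an Argonaute protein (the guide) pairs with target messenger RNAs mainly through its seed, bases 2 to 8, while the other strand (the passenger, marked with an asterisk in the older names used by the files) is mostly degraded. Mature miRNAs are long-lived in many cells, and families that share a seed can repress overlapping sets of targets. After DNA damage, p53, which ATM activates, induces the miR-34 family and promotes the processing of miR-143, miR-145 and miR-16, and ATM also phosphorylates KSRP, a protein that aids the processing of precursors that include those of let-7.

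Of the 288 members, 202 matched a RefSeq mature sequence (GRCm38.p6), 72 by the same name and 130 through an older name, and the other 86 are given by name only. The let-7 family, the largest seed group of the members, is shown first because all of its probes lay above 0. Capitals mark the seed here and in the lines that follow; sequences run 5′ to 3′ and are credited to RefSeq. Where a mature sequence has more than 1 position in the genome, 1 is given.

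let-7a, chr13:48538239-48538260, minus strand: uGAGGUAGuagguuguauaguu

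let-7f, chr13:48537889-48537910, minus strand: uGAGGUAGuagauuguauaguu

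let-7d, chr13:48536078-48536099, minus strand: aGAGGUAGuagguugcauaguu

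let-7c, chr15:85706616-85706637, plus strand: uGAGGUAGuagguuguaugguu

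let-7b, chr15:85707325-85707346, plus strand: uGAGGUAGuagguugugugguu

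let-7e, chr17:17830366-17830387, plus strand: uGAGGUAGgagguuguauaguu

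let-7i, chr10:122985698-122985719, minus strand: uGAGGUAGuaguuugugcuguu

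let-7g, chr9:106178846-106178867, plus strand: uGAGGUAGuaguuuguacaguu

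miR-98, chrX:151913229-151913250, plus strand: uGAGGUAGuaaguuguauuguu

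The guides of the chromosome 8 hairpins of miR-23a, miR-27a and miR-24 are shown with the passenger strand of the last hairpin, which moved the other way.

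miR-23a, chr8:84208563-84208583, plus strand: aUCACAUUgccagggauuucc

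miR-27a, chr8:84208727-84208747, plus strand: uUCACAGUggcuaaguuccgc

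miR-24, chr8:84208875-84208896, plus strand: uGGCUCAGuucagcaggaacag

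miR-24-2*, chr8:84208839-84208860, plus strand: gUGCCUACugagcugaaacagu

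The next set holds guide and passenger strands of single hairpins whose late differences had opposite signs.

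miR-21, chr11:86584120-86584141, minus strand: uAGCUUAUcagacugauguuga

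miR-21*, chr11:86584082-86584103, minus strand: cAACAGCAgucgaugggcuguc

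let-7b*, chr15:85707379-85707400, plus strand: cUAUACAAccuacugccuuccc

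miR-30c, chr1:23291714-23291736, plus strand: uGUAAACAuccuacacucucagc

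miR-30c-2*, chr1:23291754-23291775, plus strand: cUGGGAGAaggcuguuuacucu

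Last, 4 miRNAs with the seed AAAGUGC are shown because 2 came from a cluster whose members lay below 0 and 2 from a cluster whose members lay above 0.

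miR-17, chr14:115043684-115043706, plus strand: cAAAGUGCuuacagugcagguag

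miR-20a, chr14:115044183-115044205, plus strand: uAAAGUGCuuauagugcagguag

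miR-106b, chr5:138165787-138165807, minus strand: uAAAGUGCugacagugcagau

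miR-93, chr5:138165574-138165596, minus strand: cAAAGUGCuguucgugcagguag

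Between 8 h and 24 h most miRNAs of ATM+/+ cells moved little. Over the 288 probes the median late difference was -0.11 (log2), with the middle 50% from -0.38 to 0.13 and a range from -1.93 to 0.79. It was above 0 for 109 probes (37.8%) and below 0 for 179 (62.2%). At 2-fold, no probe was higher at 24 h (0% of 288) and 17 were lower (5.9%). At 1.5-fold, 4 probes were higher (1.39%) and 43 lower (14.9%). Those 4 were miR-872, miR-689, miR-690 and miR-1902. Each sheet gives a coefficient of variation (CV) per probe and array, whose median was 8.76% at 8 h and 9.44% at 24 h. Carried into the difference (log2), the median spot spread was 0.21, and 153 of the 288 differences were larger than their own spot spread. Spots on an array do not show how far separate cultures or arrays would differ.

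The ratio table gave a similar order with another zero point, although single probes moved further than that shift. miR-133b, for example, stood at -0.45 in the sheets and 0.28 in the ratio table. Across the 233 probes in both sources the differences correlated with Pearson's r of 0.89, a description over probes made from the same arrays. Their median was -0.08 in the sheets and 0.13 in the ratio table, a gap of 0.20. Whether the typical miRNA rose or fell between 8 h and 24 h is therefore not settled by these files, and the values below are read against the median of -0.11. Where median centring, quantile normalization or the ratio table turns the sign of a list median given below, this is said beside it.

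Intensities are given below on the scale of the 24 h sheet, in the order 0, 4, 8 and 24 h. The 10th percentile of all intensities in the 8 h and 24 h sheets, 29.0, is used as a floor for dim probes. Both sheets also hold the 0 h array, which enters that percentile. In the count of probes above the floor, 8 h intensities were taken on the scale of their own sheet. All 17 probes that were at least 2-fold lower had a 24 h intensity under that floor. Their 8 h intensities were at most 64.4, so a 2-fold lower value lay near or under the floor by arithmetic. Among the 247 probes above the floor on both arrays 0 reached 2-fold, but keeping to those probes itself removes any that ended under the floor. miR-684 had intensities of 69.3, 22.7, 49.4 and 12.9 and the lowest late difference, -1.93. miR-715 stood at 57.2, 42.2, 55.9 and 15.5, a difference of -1.85. Both probes were above the floor at 8 h and below it at 24 h, and in both the 24 h array was the lowest of the 4. Of the 17 probes, 11 are in the ratio table, where all 11 lay below 0 and 4 were at least 2-fold lower. The 2 probes just inside 2-fold were miR-223, at 42.6 and then 21.0, and miR-466b-5p, at 26.9 and then 13.4. Just outside were miR-542-3p, at 27.2 and then 13.9, and miR-30c-2*, at 65.9 and then 33.8.

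The size and sign of the late difference moved with brightness. The members were ranked by 0 h intensity into 4 brightness groups of 72 probes. In the dimmest group (18.4 to 54.4) the median was -0.32, 12 probes were above 0 and 10 were at least 2-fold lower. The medians of the next 2 groups were -0.17 and -0.09, with 20 and 28 probes above 0 and 6 and 1 at least 2-fold lower. In the brightest group, from 257 upward, the median was 0.15, 49 of 72 probes were above 0 and 0 were 2-fold lower. The low end of the 2 arrays differed: the 5th percentile of the members' intensities was 28.8 at 8 h and 16.9 at 24 h, while the 75th percentiles were 250.2 and 250.3. After quantile normalization the group medians were 0.05, 0.05, -0.01 and 0. Where a group below is made of bright or of dim probes, its median should be read against that of its own brightness group; the part of brightness in each result was not tested.

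**Figure D1:**
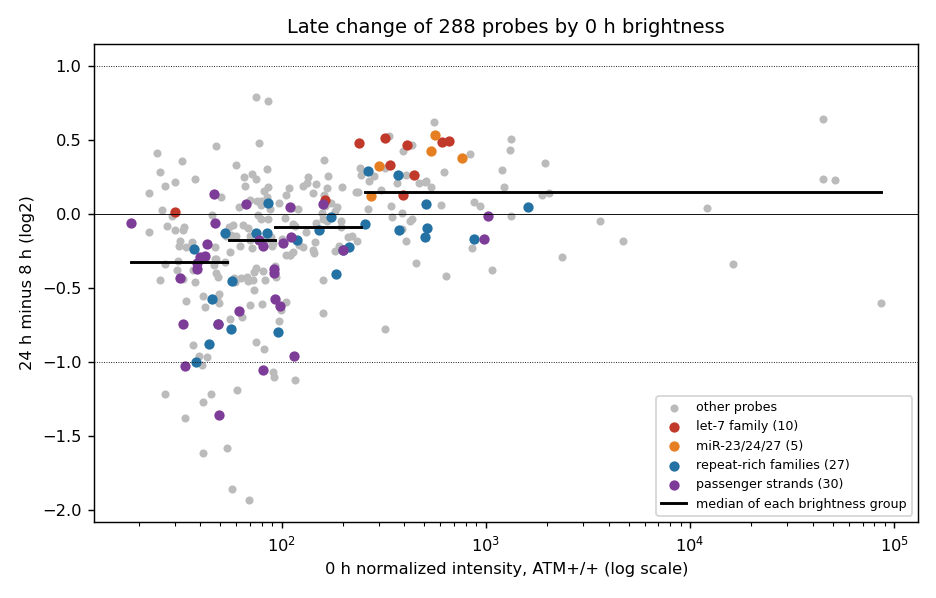
Late difference (24 h minus 8 h, log2) of the 288 ATM+/+ probes against their 0 h normalized intensity on a log axis; dotted lines mark 2-fold and black bars the median of each brightness group. The group medians climb from -0.32 to 0.15, the let-7 and miR-23/24/27 probes lie above 0, and no probe passes the upper 2-fold line.

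The let-7 miRNAs, which repress growth-promoting genes such as Ras, Lin28 and Hmga2, were higher at 24 h than at 8 h throughout. All 10 probes of the family lay above 0 with a median of 0.40, against 37.8% of all members above 0 and 49 of 72 in the brightest group, and 0 of the 10 reached 1.5-fold. The family's median was 0.51 with arrays centred on their medians, 0.21 after quantile normalization and 0.49 in the ratio table, where all 9 measured probes were above 0. let-7f had intensities of 320, 758, 583 and 833, a late difference of 0.51, or 1.43-fold, with a spot spread of 0.27. The 2 let-7a probes read 663, 1217, 1072 and 1507 and 609, 1279, 1100 and 1538, with differences of 0.49 and 0.48. Both probes thus put let-7a about equally far up, and in each the 24 h array was the brightest of the 4. let-7b read 239, 446, 402 and 560, a difference of 0.48, and let-7c read 410, 882, 725 and 1000, a difference of 0.46. let-7d stood at 0.33 and let-7e at 0.26.

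The remaining let-7 relatives moved less. let-7i read 393, 765, 703 and 768, with a difference of 0.13, and let-7g read 164, 291, 272 and 290, with a difference of 0.09. miR-98, the dimmest member, had 30.3, 62.9, 59.8 and 60.3, so that its 8 h and 24 h arrays differed by 0.01. For 7 of the 10 probes the difference was larger than the spot spread. All 10 probes were lowest at 0 h, lower at 8 h than at 4 h, and above their 8 h value again at 24 h. As the sequences printed above show, let-7c, let-7e and let-7f each differ from let-7a at 1 of 22 bases, let-7b, let-7d, let-7g and miR-98 at 2 and let-7i at 4. The probe sequences are not in the files used here, so how far these probes bind each other's targets was not tested, and the family should not be counted as 10 separate measurements. By position, the chromosome 13 cluster of let-7a, let-7f and let-7d had a median of 0.49, and let-7c and let-7b on chromosome 15 stood at 0.46 and 0.48.

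The miR-23/24/27 miRNAs, made from a pair of clusters and abundant in fibroblasts and vessels, behaved alike. All 5 lay above 0, with a median of 0.38 in the sheets, 0.49 centred, 0.17 after quantile normalization and 0.65 in the ratio table. miR-23a had intensities of 562, 1085, 808 and 1167, a late difference of 0.53 with a spot spread of 0.14. miR-23b read 539, 981, 753 and 1011, a difference of 0.42. miR-24 read 761, 1316, 995 and 1294, a difference of 0.38, and miR-27a and miR-27b stood at 0.32 and 0.12. In all 5, 0 h was the lowest of the 4 arrays and 8 h lay below both 4 h and 24 h.

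Several other miRNAs typical of fibroblasts and other connective-tissue cells were also on the higher side, while others moved less. miR-214 and miR-221, both in the brightest group (median 0.15), stood at 0.06 and 0.01. miR-222, in the third group (median -0.09), stood at 0.15. miR-143 and miR-145, which are co-transcribed and mark smooth muscle and fibroblasts, had late differences of 0.40 and 0.51. miR-145 read 1328, 1849, 1262 and 1793, so that 4 h and 24 h stood together above 0 h and 8 h. Their median of 0.45 was 0.56 centred, 0.23 after quantile normalization and 0.59 in the ratio table. miR-21, an abundant miRNA that represses Pdcd4, read 1315, 3055, 2266 and 3053, a difference of 0.43. miR-199a-3p/miR-199b read 394, 840, 739 and 992, a difference of 0.42. In the chromosome 1 cluster that encodes it, all 4 names (miR-214, miR-214*, miR-199a-5p and miR-199a-3p/miR-199b) were above 0, with a median of 0.14. miR-26a and miR-26b, whose targets include Ezh2, stood at 0.26 and 0.33, and miR-29a, a repressor of collagen genes, at 0.28. miR-29b, with the same seed as miR-29a, stood at -0.06. The median of these 2 was 0.11 in the sheets, 0.02 after quantile normalization and 0.27 in the ratio table. miR-125b-5p, a repressor of p53 in zebrafish and human cells, was brighter at 1892, 4128, 3325 and 3639, with a difference of 0.13.

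**Figure D2:**
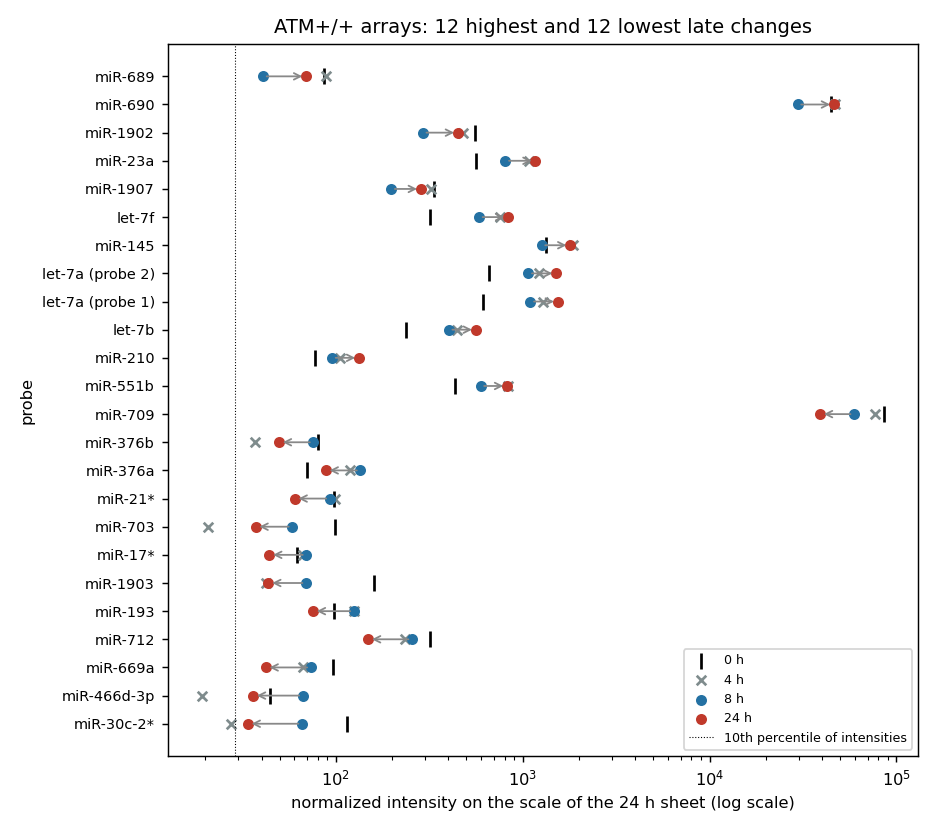
Normalized intensity (log axis) at 0, 4, 8 and 24 h for the 12 highest and 12 lowest late differences among probes above the floor on both arrays; arrows run from 8 h to 24 h. In the let-7, miR-23a, miR-145 and miR-551b probes the 24 h array lies near or above the 4 h array, and the lowest probes other than miR-709 end between 33.8 and 149 at 24 h.

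The p53-linked miRNAs did not move as a block. Of 6 measured, 4 lay above 0, with a median of 0.18 in the sheets, 0.29 centred, 0.12 after quantile normalization and 0.36 in the ratio table. miR-34a, which p53 induces and which represses cell cycle and survival genes, read 322, 513, 429 and 532, a late difference of 0.31. Its relatives miR-34c, at 27.6, 39.5, 68.6 and 64.9, and miR-34b-5p, at 22.4, 69.7, 54.4 and 49.9, had differences of -0.08 and -0.12. All 3 stayed above their 0 h value at 24 h, and only miR-34a was higher than at 8 h. miR-107 stood at 0.06, and miR-143 and miR-145, also in this list, at 0.40 and 0.51. miR-16, a repressor of cell cycle genes, stood at -0.04. Of the inflammation-linked miRNAs, miR-146a, a brake on NF-kB signalling, read 30.3, 87.1, 106 and 123, a difference of 0.21. miR-155 stood at 0.06 and the myeloid miR-223, the dim probe just inside 2-fold, at -1.02.

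Outside these families, the highest late differences belonged to probes with little known about their function. miR-872 had the highest value of all, 0.79, from 28.4 at 8 h to 49.0 at 24 h, but its 8 h intensity lay under the floor. miR-689 read 85.9, 88.3, 40.8 and 69.2, a difference of 0.76 with a spot spread of 0.34. miR-690, among the 5 brightest probes, read 44802, 46644, 29557 and 46174, a difference of 0.64. miR-1902 read 558, 477, 292 and 449, a difference of 0.62, and miR-1907 read 335, 324, 198 and 284, a difference of 0.52. In these 4 probes the 8 h array was the lowest of the 4 and the 24 h array returned towards 4 h, in contrast to let-7 and miR-23a, where 0 h was the lowest. miR-210, the miRNA best known for its induction by hypoxia, read 77.2, 105, 95.5 and 133, a difference of 0.48 with a spot spread of 0.46. miR-551b read 437, 836, 595 and 823, a difference of 0.47.

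The 12 lowest differences above the floor came from probes of all brightness groups at 0 h, 6 of them in the third group and 2 in the brightest. miR-30c-2* read 115, 27.4, 65.9 and 33.8, a late difference of -0.96, or 1.95-fold lower at 24 h, with a spot spread of 0.18. miR-466d-3p read 44.3, 19.1, 66.5 and 36.1, a difference of -0.88, and miR-669a read 96.5, 66.8, 73.4 and 42.2, a difference of -0.80. miR-712 was the brightest of the first 5, at 321, 234, 256 and 149, with a difference of -0.78 and a spot spread of 0.05. miR-193 read 97.3, 126, 125 and 75.5, a difference of -0.72. miR-1903, miR-17*, miR-703 and miR-21* followed, from -0.67 to -0.62. miR-376a and miR-376b, imprinted miRNAs of the Dlk1-Dio3 region, both stood at -0.61.

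miR-709 was the single very bright probe among the lowest. It read 86094, 76737, 59345 and 39060, lower at each later time, with a late difference of -0.60. Its CV was 0.0046% at 8 h, against a median of 8.76% over the members, and 25% at 24 h. The files carry no saturation flag, so whether its spots were saturated was not tested, and its levels and late difference are uncertain. The other probes among the 5 brightest were miR-720 at 0.23, miR-1195 at 0.24, miR-690 at 0.64 and miR-762 at -0.34. After quantile normalization miR-1195 and miR-762 came to 0, so these 2 held the same rank on both arrays.

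The miR-17-92 miRNAs and their paralogs, which drive proliferation and are targets of Myc and E2F, were mixed, with opposite sides taken by the chromosome 14 and chromosome 5 clusters. Of 11 measured, 4 lay above 0 with a median of -0.09, which turned to 0.02 with arrays centred and 0.08 in the ratio table. In the chromosome 14 cluster (115043684 to 115044496), all 7 names were below 0, with a median of -0.19: miR-17*, miR-19a, miR-18a, miR-17, miR-92a, miR-20a and miR-19b. In the paralogous chromosome 5 cluster (138165332 to 138165807), all 3 names, miR-106b, miR-93 and miR-25, were above 0, with a median of 0.14. miR-17 read 234, 361, 292 and 256, a late difference of -0.19, and miR-20a read 196, 362, 269 and 253, a difference of -0.09. miR-93 read 142, 233, 170 and 188, a difference of 0.14, and miR-106b read 87.7, 168, 128 and 131, a difference of 0.04. All 4 carry the seed AAAGUGC, and their differences lay between -0.19 and 0.14. In the chromosome X paralog, miR-106a and miR-20b, both with the same seed, stood at -0.45 and 0.13, so that cluster lay on both sides of 0, and miR-19a was the lowest of the 11 at -0.54. In the ratio table miR-17, miR-18a, miR-20a and miR-19b came out above 0, from 0.02 to 0.31, so the signs on chromosome 14 depend on the zero point. miR-106b, miR-93 and miR-25 lay at 0.32, 0.36 and 0.17 there.

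The passenger strands were lower as a group. Of 30 probes named with an asterisk, 4 were above 0 and 26 below, with a median of -0.29, against -0.09 for the other 258 probes. The median was -0.18 with arrays centred and -0.09 after quantile normalization, and none of the 30 is in the ratio table. They were dim, with a median 0 h intensity of 72.1 against 92.7 over all members. In the dimmest group passenger strands and other probes had medians of -0.33 and -0.32, while in the second group they were at -0.37 and -0.17 and in the third at -0.22 and -0.07. Among 16 guide and passenger pairs, matched by hairpin, the guide had the higher late difference in 13, and in 10 the guide lay above 0 and the passenger below. The median gap, guide minus passenger, was 0.45. The miR-30c probe enters the pairs with both miR-30c-1* and miR-30c-2*, so they are not 16 separate comparisons. Where a guide sequence has more than 1 position in the genome, its signal cannot be assigned to a single hairpin.

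miR-21 and miR-21* showed the contrast within a hairpin: the guide went from 2266 at 8 h to 3053 at 24 h and the passenger from 92.7 to 60.3, differences of 0.43 and -0.62. let-7b went from 402 to 560 and let-7b* from 61.6 to 46.6, differences of 0.48 and -0.40. miR-24 went from 995 to 1294 and miR-24-2* from 68.9 to 50.9, differences of 0.38 and -0.44. miR-30c was itself dim, going from 43.5 to 53, a difference of 0.28, while the brighter miR-30c-2* gave -0.96. miR-376b and miR-376b* went the other way, with the guide at -0.61 and the passenger at 0.14. Among all 29 arm pairs of a hairpin, named with an asterisk or as 5p and 3p, the brighter arm at 0 h had the higher late difference in 18. The widest gap was in miR-409, where miR-409-3p stood at 0.23 and miR-409-5p, under the floor at 24 h, at -1.19.

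**Figure D3:**
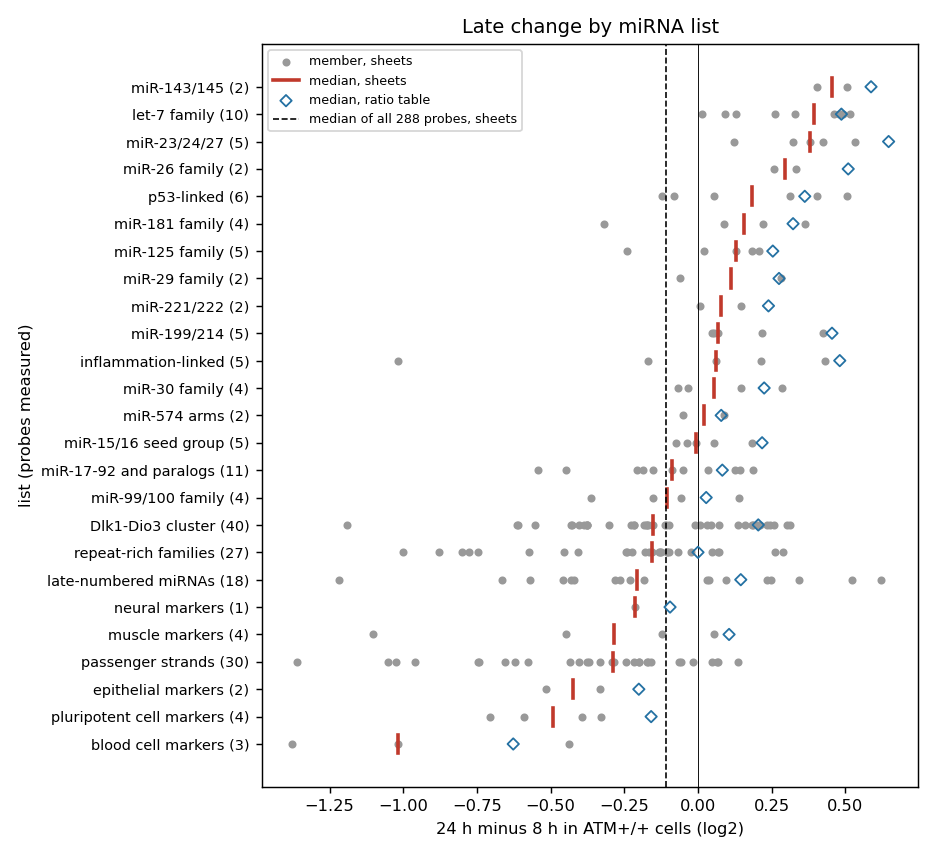
Late difference (24 h minus 8 h, log2) of each probe in 25 miRNA lists, with the list's median in the sheets (red bar), its median in the ratio table (blue diamond) and the median of all 288 probes (dashed line). The let-7, miR-23/24/27, miR-143 with miR-145 and miR-26 lists are among those wholly above 0 in the sheets, and the blood, pluripotent and epithelial marker lists wholly below 0.

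A pair of large groups, one imprinted and one repeat-rich, sat near the median of all probes. The Dlk1-Dio3 region on chromosome 12 is an imprinted locus whose miRNAs are expressed from the maternal copy and are high in embryonic cells. Of its 40 probes, 15 were above 0, with a median of -0.15 that became 0.04 after quantile normalization and 0.20 in the ratio table. Along the locus, the 17 names between 109709065 and 109743784, miR-379 and miR-541 among them, had a median of 0.07 with 10 above 0, and the 11 names around miR-127 and miR-431 a median of -0.16 with 2 above 0, with miR-431 taken from 1 of its 2 probes. miR-127 read 306, 402, 360 and 402, a difference of 0.16, and miR-541 read 244, 359, 281 and 336, a difference of 0.26. The lowest of its probes was miR-409-5p, at -1.19 and under the floor at 24 h, followed by miR-376a and miR-376b, given above.

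The miR-297, miR-466, miR-467 and miR-669 families are repeat-rich miRNAs, many of whose hairpins lie in an intron of Sfmbt2, although RefSeq places the 4 members matched here on other chromosomes. Of 27 probes, 5 were above 0 with a median of -0.16, which was -0.05 centred, -0.03 after quantile normalization and 0 in the ratio table. The brightest, miR-669c, read 1611, 341, 581 and 601, a late difference of 0.05. miR-466f-3p read 879, 236, 405 and 361, a difference of -0.17, and miR-669d read 265, 107, 121 and 148, a difference of 0.29. Each of these 3 was far below its 0 h value at 4 h and stayed below it at 24 h. These family members resemble each other in sequence, so their probes may not be separate measurements.

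Late-numbered miRNAs, those numbered 1000 and above, spread over both sides, with 8 of 18 above 0 and a median of -0.21, which was -0.01 after quantile normalization and turned to 0.15 in the ratio table, where 12 of 18 were above 0. Their ends were miR-1902 at 0.62 and miR-1192 at -1.22, the second under the floor at 24 h. The 4 members of the miR-181 family had a median of 0.15, led by miR-181b at 0.36, and the miR-30 family a median of 0.06. The miR-15/16 seed group had a median of -0.01, which turned to 0.10 centred, 0.05 after quantile normalization and 0.22 in the ratio table. miR-221 and miR-222, which repress the cell cycle inhibitor p27, stood at 0.01 and 0.15, with a median of 0.08 that turned to -0.10 after quantile normalization.

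Markers of other cell types were examined on the same arrays. The blood cell markers miR-150, miR-223 and miR-486 had late differences of -1.38, -1.02 and -0.44, with intensities at 24 h of 12.7, 21.0 and 46.4, the first 2 under the floor. The blood list's median of -1.02 was -0.91 centred, -0.48 after quantile normalization and -0.63 in the ratio table. The pluripotent cell markers (4 of 4 below 0, median -0.49) had intensities from 16.5 to 62.1 at 24 h, and their median turned to 0.06 after quantile normalization and was -0.16 in the ratio table. The epithelial markers miR-200b and miR-141 stood at -0.52 and -0.33, with 24 h intensities of 59.6 and 244. The muscle marker miR-133a went from 41.4 to 19.3, a difference of -1.10, whereas miR-1 went from 192 to 199, a difference of 0.05. The muscle list's median of -0.28 turned to 0.08 after quantile normalization and to 0.11 in the ratio table. No liver or endothelial marker was among the members. The fibroblast-typical miR-21, miR-143, miR-145 and miR-199a-3p/miR-199b lay between 739 and 2266 at 8 h and between 992 and 3053 at 24 h. Other fibroblast-typical miRNAs changed less. miR-214 went from 1461 to 1518, miR-199a-5p from 765 to 889 and miR-125b-5p from 3325 to 3639. miR-221 went from 618 to 622 and miR-222 from 330 to 365. The part of these other cell types in any late difference was not tested.

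The ratio table holds 159 probes with no name in the files used here, and most of its low values were theirs. Over its 431 probes, at 2-fold, 2 were higher at 24 h than at 8 h (0.464%) and 56 lower (13%). Among the 272 named probes the counts were 2 (0.735%) and 9 (3.31%). Among the 159 unnamed probes they were 0 (0%) and 47 (29.6%), with 6 above 0 and a median of -0.77, against 0.09 for the named ones. The 2 higher probes were miR-689, with ratios to 0 h of 0.58 at 8 h and 1.20 at 24 h, and miR-872, with 0.36 and 0.73. The table gives no intensity, so the brightness of the unnamed probes is unknown. Because the unnamed probes carry most of the low values, the table's overall median of -0.19 is not that of its named miRNAs.

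The late difference resembled the earlier step from 0 h to 4 h, although the 2 differences share no array. Over the 284 members with a 4 h value, the late difference and the 4 h minus 0 h difference correlated with Pearson's r of 0.39 and Spearman's rho of 0.42. Within the 4 brightness groups r was 0.67, 0.39, 0.56 and 0.55. Probes are not independent samples, and both differences subtract position 1 from position 2 of a chip, with 0 h and 4 h on one chip and 8 h and 24 h on another. The early step was much wider: at 2-fold, 21 probes were higher at 4 h (7.39%) and 57 lower (20.1%). All 10 let-7 probes were above 0 in it too, with a median of 1.0, and all 5 miR-23/24/27 miRNAs, with a median of 0.82. The miR-297, miR-466, miR-467 and miR-669 families were at -1.26 there, with 1 probe above 0, and at -0.16 in the late difference. In ATM-/- cells, with the same layout of positions, the 2 differences correlated with r of -0.22 over 123 probes. That is a smaller set, and a brighter one on the ATM+/+ 0 h array: of the 120 that are members here, 46 lay in the third brightness group and 61 in the brightest. The ATM+/+ correlation over that set was not computed, so the values of the 2 genotypes are not compared.

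**Figure D4:**
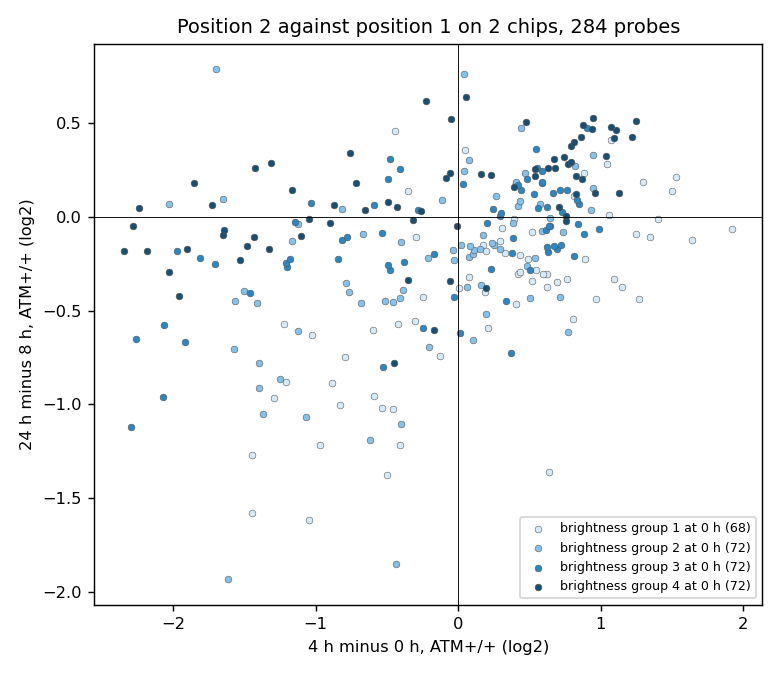
Late difference (24 h minus 8 h) against the early difference (4 h minus 0 h) in ATM+/+ cells, log2 scale, 284 probes shaded by brightness group at 0 h; both axes are array position 2 minus position 1 on a chip. The cloud runs from lower left to upper right (r 0.39), and the early axis spans -2.34 to 1.92 against -1.93 to 0.79 for the late one.

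The same late difference was taken in ATM-/- cells, where 123 probes are listed in both sheets, 120 of them also members here. Over those 120, at 2-fold, 0 were higher (0%) and 2 lower (1.67%) in ATM+/+ cells, against 3 (2.5%) and 21 (17.5%) in ATM-/- cells. Above 0 were 63 probes (52.5%) in ATM+/+ cells and 61 (50.8%) in ATM-/- cells. The 2 genotypes had the same sign for 74 of 120 probes and correlated with r of 0.23 over probes, a description with no test. The difference between genotypes, ATM+/+ minus ATM-/-, had a median of -0.03 and was above 0 for 59 of 120 probes. It was 2-fold or more for 22 probes higher in ATM+/+ and 4 lower. Over the 97 of these probes in the ratio table its median there was 0.72, and over all 431 ratio-table probes, many of them unnamed, it was -0.18. List differences from that table rest on the 97 probes and are read against 0.72, and those from the sheets against -0.03. The labels and headers do not say whether the genotypes were put on a common scale, so levels are compared within a genotype.

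Several miRNAs typical of fibroblasts were higher at 24 h than at 8 h in both genotypes by the sheets. miR-23a went from 49.8 to 87.0 in ATM-/- cells, a late difference of 0.80 against 0.53 in ATM+/+ cells. miR-24 went from 339 to 640, a difference of 0.92 against 0.38, and miR-143 from 85.2 to 157, a difference of 0.88 against 0.40. miR-145 stood at 0.55 in ATM-/- and 0.51 in ATM+/+ cells, but at -0.05 in ATM-/- cells by the ratio table. miR-125b-5p differed, at -0.29 in ATM-/- and 0.13 in ATM+/+ cells, and miR-29a, at 0.37 and 0.28 by the sheets, stood at -0.31 in ATM-/- cells by the ratio table. The miR-23/24/27 list, 3 of 3 above 0 in both genotypes, was 0.36 lower in ATM+/+ by the sheets and 0.36 higher by the ratio table. Both values lie below the medians of the shared probes, -0.03 in the sheets and 0.72 in the ratio table. The raw sign thus depends on the source, and the difference was not tested.

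The let-7 probes listed in all 4 sheets differed in sign, while the wider family in the ratio table did not do so as a whole. Of the 3 let-7 probes in all 4 sheets, the ATM+/+ values were 0.49 for let-7a, 0.48 for let-7b and 0.26 for let-7e, and the ATM-/- values were -0.55, -0.88 and -0.14. The ATM-/- intensities were low: let-7a went from 39.9 at 8 h to 27.1 at 24 h, let-7b from 43.9 to 23.9 and let-7e from 67.5 to 61.2. The median genotype difference of the 3 was 1.05 in the sheets, 1.10 centred and 1.67 over the 2 that the ratio table holds, with ATM+/+ higher under each. The ratio table holds 9 let-7 probes for both genotypes, all above 0 in ATM+/+ cells and, in ATM-/- cells, 4 above 0 and 5 below, with a median of -0.01. let-7f stood there at 0.68 in ATM+/+ and 0.60 in ATM-/- cells and let-7c at 0.75 and 0.77. The late difference was higher in ATM+/+ cells for 7 of the 9, by a median of 0.50. That lies below the 0.72 of the ratio-table probes in the 4 sheets, to which 2 of the 9 belong. It lies above the -0.18 of all 431 ratio-table probes, so its place depends on the set it is read against.

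The repeat-rich families were apart between genotypes. All 12 probes of the miR-297, miR-466, miR-467 and miR-669 families in the 4 sheets had a higher late difference in ATM+/+ cells, against 59 of 120 shared probes. Their medians were -0.08 in ATM+/+ and -1.14 in ATM-/- cells, and 0 of the 12 lay above 0 in ATM-/- cells. Most of the 12 were in the brightest group, but the groups were ranked on the ATM+/+ 0 h array. In ATM-/- cells the intensities of the 12 were low, between 44.9 and 176 at 8 h and between 17.0 and 78.8 at 24 h. The median intensity of the ATM-/- 24 h array in its sheet was 73.6. The late difference of the brightest group had a median of -0.36 over 61 probes in ATM-/- cells, against 0.26 over 46 in the third group. In ATM+/+ cells the brightest group's median was 0.15. The part of brightness in the genotype differences of this and the late-numbered list was not tested. The list's median genotype difference was 1.06 in the sheets and 1.499 in the ratio table. miR-669c went from 581 to 601 in ATM+/+ cells and from 176 to 78.8 in ATM-/- cells, differences of 0.05 and -1.16. miR-466f-5p went from 208 to 193 and from 80.9 to 17.0, differences of -0.11 and -2.25. miR-494, an unrelated Dlk1-Dio3 miRNA, went from 608 to 690 and from 104 to 26.8, differences of 0.18 and -1.96. The late-numbered list was higher in ATM+/+ cells for 11 of 11 probes, with medians of 0.03 and -0.68 and a median difference of 0.67, or 1.56 in the ratio table. In the opposite direction, miR-709 stood at -0.60 in ATM+/+ and 0.73 in ATM-/- cells, going from 38661 to 64245 in the second.

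**Figure D5:**
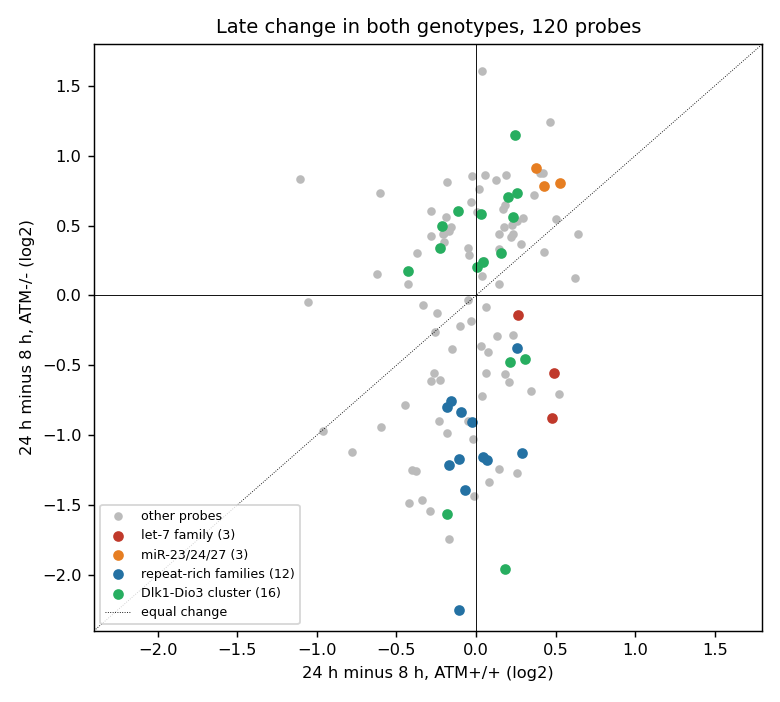
Late difference (24 h minus 8 h, log2) in ATM+/+ cells against ATM-/- cells for the 120 probes in all 4 sheets, with the line of equal change dotted. The 12 probes of the repeat-rich miR-297, miR-466, miR-467 and miR-669 families lie below the line at ATM-/- values from -2.25 to -0.37, the 3 let-7 probes lie right of 0 and below it, and the 3 miR-23/24/27 probes lie above 0 on both axes.

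What the members share beyond brightness was looked for in the mature sequences. Over the 202 members with a RefSeq sequence, the late difference correlated with the percentage of U with r of 0.20 and Spearman's rho of 0.26, with the percentage of C with r of -0.17 and rho of -0.20, and with the percentage of G with r of 0.12. In the 68 members richest in U the median was 0.03, with 37 above 0, against -0.16 and 20 above 0 in the 67 poorest in U. The 67 members between them had a median of -0.17 with 23 above 0, so the medians did not climb step by step with U. The median 0 h intensities of the richest, middle and poorest sets were 108, 78.9 and 105. The 98 matched probes brighter than the median at 0 h gave an r of 0.23 for U, -0.23 for C and -0.20 for G and C together, and length gave 0.05 over all 202. These are weak relations across probes whose members include families of shared sequence such as let-7, in which U makes up 31.8% to 45.5%. Among seeds with 2 or more probes, GAGGUAG of let-7 had the most probes. The lowest medians were -0.66 for AACAAAC of miR-1192 and miR-495 and -0.65 for AUCAAAG of miR-291a-5p and miR-291b-5p. UGGGAGA of miR-30c-1* and miR-30c-2* followed at -0.56.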

How the data were processed

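Total RNA extracted with Trizol (4 µg) was labelled with a Kreatech ULS miRNA kit and hybridised to single-colour Phalanx arrays, per the labels' protocols. Per the file headers, the authors deposited 6 sheets of treated against 0 h arrays, each with normalized intensities, a CV as a fraction, a log2 ratio and a p-value per probe, and a ratio table with each array divided by its 0 h array. The normalization, the dim-probe filter and the test behind the deposited p-values are not stated in the labels or headers, and those p-values were not used. No genome build or aligner applies to these files.

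Sheets of one genotype differ by a constant factor. The 8 h and 4 h sheets were multiplied by 1.09 and 1.24 to match the 24 h sheet, no pseudocount was added, and log2 differences were taken in Python 3.11 (numpy, pandas). Calls were at 2-fold. Precision is limited by 1 array per genotype and time, so nothing was tested. The calculation was tested on simulated data. Genes were named by rule: the 12 highest and 12 lowest differences above the floor whose ratio-table difference had the same sign after centring, the 5 brightest, the probes around 2-fold, and examples of the lists. The lists, markers and members were chosen with earlier results of these data known.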

Additional observations from a re-analysis of the deposited data

Results flagged for a closer look

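The probe for miR-883a-5p is listed in the 8 h sheet and not in the 24 h sheet, so it has no late difference. Its 8 h intensity was 6003 against 10.0 at 0 h on that sheet's scale, with a CV of 173% between spots. It was picked out because this signal lies outside the comparison and above the 0 h array.

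The 3 let-7 probes in the 4 sheets lay above 0 in ATM+/+ cells and below 0 in ATM-/- cells, with a median difference between genotypes of 1.05. Of the 9 let-7 probes in the ratio table, 4 lay above 0 in ATM-/- cells as well, among them let-7f at 0.60 and let-7c at 0.77. The 2 muscle marker probes, miR-133a and miR-1, had a median difference of -1.06 between genotypes, from -0.53 in ATM+/+ and 0.54 in ATM-/- cells. miR-133a was under 42 in intensity on the 8 h and 24 h arrays of both genotypes. The ratio table put the difference of the 2 muscle probes at -0.03, where the shared probes had a median of 0.72. Both lists were picked out because the genotypes' medians had opposite signs and lay at least 2-fold apart. Neither difference was tested.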

How the results depend on the processing

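The count of 0 probes at least 2-fold higher became 2 after quantile normalization, 2 in the ratio table (all probes, and also over the probes shared with the sheets) and 4 at 1.5-fold. The count of 17 probes at least 2-fold lower became 11 with arrays centred on their medians, 2 after quantile normalization, 56 in the whole ratio table, 4 over its shared probes and 43 at 1.5-fold. It became 3 with spot CVs of at most 20%, and 0 with both intensities at or above the 10th percentile or the median, where fewer probes remain. It was also 0 with 50 added to each intensity, an alternative chosen after seeing the data. The median difference between genotypes of -0.03 became 0.72 in the ratio table over 97 probes; the cause was not tested. None of the 24 highest and lowest miRNAs changed sign after quantile normalization. The offset cannot change a sign, and centring shifts each difference by 0.11, less than any of the 24, so neither could have turned one. Their sign in the ratio table was part of how they were chosen and shows nothing about stability. Of 25 list medians, 3 changed sign under centring and 7 after quantile normalization, and 7 of 24 in the ratio table. No paired analysis was possible because there is 1 array per genotype and time. Low signal limits the dim probes most: differences under an intensity of 29.0 rest on the weakest spots.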
